A study of Mus musculus with 10 samples.

Results

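The eicosanoid genes outside the prostaglandin E2 axis were followed in lineage-depleted bone marrow of male and female mice. They were chosen by gene symbol and are 10 of the 25178 genes in the count table. They comprise the leukotriene genes Alox5, Alox5ap, Lta4h and Ltc4s, the thromboxane synthase gene Tbxas1, the prostaglandin D synthase genes Ptgds and Hpgds, the prostacyclin genes Ptgis and Ptgir, and the reductase gene Ptgr1. All 10 had counts, and 8 passed the filter on low counts and were tested. Ptgds and Hpgds did not pass it and are given by their counts.

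The mice, 5 males and 5 females, were of the inbred C57/BL6 strain and had no injury or treatment, and marrow was taken from 1 hindlimb of each. Cells carrying markers of mature lineages were taken out with magnetic beads, and RNA of what remained was sequenced in bulk, with 1 library per mouse. The labels call these cells hematopoietic stem and progenitor cells (HSPC). They give no age and no antibodies of the depletion. The comparison asks how the sexes differ in blood formation at steady state. In bulk RNA, more cells of a type and more RNA per cell cannot be told apart.

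Eicosanoids are short-lived lipid signals made from arachidonic acid, which phospholipases release from membranes. In the leukotriene arm, 5-lipoxygenase (Alox5) works with its helper protein FLAP (Alox5ap) to make leukotriene A4. That product goes to leukotriene B4 through the hydrolase Lta4h, or to the cysteinyl leukotrienes through the synthase Ltc4s. In the cyclooxygenase arm, prostaglandin H2 is turned into thromboxane A2 by Tbxas1, into prostaglandin D2 by Ptgds or Hpgds, and into prostacyclin by Ptgis. Neutrophils are known for leukotriene B4, mast cells, basophils and eosinophils for cysteinyl leukotrienes, mast cells also for prostaglandin D2, platelets for thromboxane, and vessel wall and stromal cells for prostacyclin.

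Library totals ran from 20754101 to 24759687 counts. Xist was at 34.4 to 50.8 counts per 1000000 of the scaled library total (CPM) in females and at most 0.208 CPM in males. Uty, Kdm5d, Ddx3y and Eif2s3y, all on the Y chromosome, summed to 114 to 139 CPM in males and at most 0.0893 CPM in females, as the labels have it. All 12 stem and progenitor markers had counts, led by Myb and Kit, and summed to 635 to 1030 CPM per library. Markers of mature cells were present too. The 12 mature neutrophil markers, all above 1 CPM on average, summed to 291 to 1085 CPM in females and 236 to 9610 CPM in males, with male replicate 1 at the top and male replicate 2 next at 2930 CPM. Male replicate 2 had the lowest normalization factor (0.886, the others 0.964 to 1.05). The longer a gene's exons, the lower it tended to stand there against the other libraries (rank correlation -0.51 across 14663 genes). This is a description, since genes are not independent. Male replicates 1 and 3 had the same sign (-0.15 and -0.30), and male replicates 4 and 5 the opposite (0.37 and 0.29). All females were positive too (0.04 to 0.33). The part of exon length in the values given here was not tested. Male replicate 1 was also highest for the sums of erythroid, macrophage, B lineage, and T and natural killer cell markers. At least 1 CPM on average was reached by 9 of 10, 7 of 9, 4 of 9 and 2 of 8 of these, in that order. Of the last sum in male replicate 1 (81.1 CPM), Nkg7 made up 74.0 CPM. Cd3d, Cd4 and Klrb1c of that list were also highest there, and Cd3e, Cd3g, Cd8a and Ncr1 in other libraries. Erythroid markers summed to 4292 to 8616 CPM in females and 10585 to 47286 CPM in males, without overlap, and their part in the values given here was not tested. The fold changes of Alox5, Alox5ap, Lta4h, Ptgr1 and Ptgir are also given without 1 or both of male replicates 1 and 2.

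The stretches upstream of 3 members are shown because their genes stand for the patterns described next. Alox5 and Lta4h make leukotriene B4 and were highest in male replicate 1. Ptgir was high in 4 females and also in male replicate 1. Each is the 250 bases before the RefSeq start of the gene (GRCm38.p6), 5′ to 3′ on the gene's strand. They lie at chr6:116461179-116461428 (minus strand) for Alox5, chr10:93453146-93453395 (plus) for Lta4h and chr7:16906240-16906489 (plus) for Ptgir. Capitals mark matches on either strand to the GC box GGGCGG or to GAGGAA, a core bound by ETS factors.
Alox5: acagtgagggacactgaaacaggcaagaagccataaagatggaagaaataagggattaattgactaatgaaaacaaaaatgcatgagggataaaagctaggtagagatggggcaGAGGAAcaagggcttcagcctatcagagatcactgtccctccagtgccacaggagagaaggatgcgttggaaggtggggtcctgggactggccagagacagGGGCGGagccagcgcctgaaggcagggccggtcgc
Lta4h: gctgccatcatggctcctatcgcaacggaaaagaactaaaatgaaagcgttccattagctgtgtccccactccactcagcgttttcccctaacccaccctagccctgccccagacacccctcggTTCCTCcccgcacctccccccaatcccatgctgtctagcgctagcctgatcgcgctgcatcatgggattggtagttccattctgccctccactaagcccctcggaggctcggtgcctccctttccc
Ptgir: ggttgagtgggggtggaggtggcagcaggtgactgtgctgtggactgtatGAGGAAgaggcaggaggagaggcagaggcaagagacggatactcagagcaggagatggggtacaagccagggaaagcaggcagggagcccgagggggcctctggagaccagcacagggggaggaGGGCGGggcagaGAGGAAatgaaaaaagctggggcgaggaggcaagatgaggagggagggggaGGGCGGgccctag
RefSeq entries were matched for 8 of the 10 members, without Alox5ap and Ptgis. GGGCGG stood in the stretches of Alox5, Ptgir and Ptgr1, and in 33.0% of all 32536 such stretches. GAGGAA stood in those of Alox5, Lta4h, Ptgir, Tbxas1 and Hpgds, and in 23.4% of all. The TATA box letters TATAAA were found in the stretch of Tbxas1 and in 12.3% of all. They match there on both strands at 1 overlapping site, next to the match to GAGGAA. The RefSeq start of Tbxas1 lies 43582 bases downstream of the start of the gene's span given below, so this stretch lies inside that span. The letters AGATAA, bound by GATA factors, were in 0 of these 8 and in 9.97% of all. A match is a description of letters and not of binding.

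Leukotriene B4 genes were the most abundant of the set. On the scale of CPM per kilobase of the gene's exons, Alox5ap averaged 37.0 ± 12.2 and Lta4h 33.5 ± 5.29 (SD over 10 libraries). Alox5 (11.3 ± 2.93) and Ptgr1 (11.0 ± 3.67) followed, then Tbxas1 (3.24 ± 0.471), Ptgir (2.12 ± 0.443), Ltc4s (0.599 ± 0.230), Ptgis (0.304 ± 0.267), Ptgds (0.145 ± 0.128) and Hpgds (0.0678 ± 0.0415). The ranges over libraries did not overlap between Lta4h and Alox5, Ptgr1 and Tbxas1, Tbxas1 and Ptgir, or Ptgir and Ltc4s. They overlapped between Alox5ap and Lta4h, between Alox5 and Ptgr1, and among the 4 lowest genes except between Ltc4s and Hpgds. The length matters for this order: with the longest principal transcript in place of all exons, a choice made after seeing the data, Lta4h stood first at 101 and Alox5ap second at 42.0 CPM per kilobase, and Tbxas1 (14.8) moved above Ptgr1 (11.0).

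**Figure D1:**
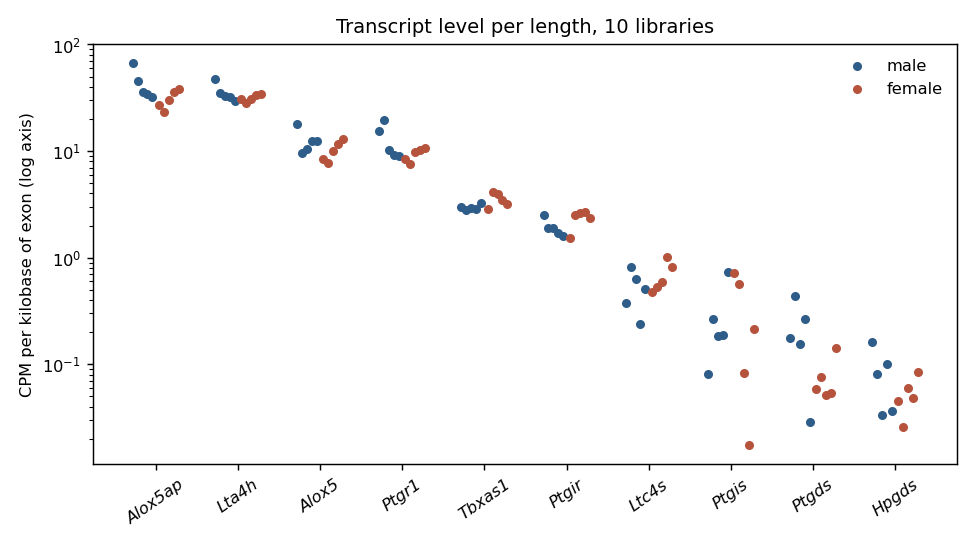
CPM per kilobase of exon (log axis) for the 10 genes in order of their mean over all libraries; each point is 1 mouse, males in blue and females in red. Alox5ap and Lta4h lie at the top with means of 37.0 and 33.5, and Hpgds lies lowest at 0.0678.

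No member was called different between the sexes. In edgeR's quasi-likelihood test 0 of the 8 tested members passed an adjusted p under 0.05, where 0.0545% of all 14674 genes tested did (8 genes). At an unadjusted p under 0.05 there were 2, Tbxas1 higher and Alox5ap lower in females, beside 9.17% of all genes (3.76% higher and 5.41% lower). DESeq2 called 0 of the 8 as well. Of the tested members 4 had a positive and 4 a negative log2 fold change (female minus male), with a median of -0.01, and the median over all genes tested was also -0.01. The CPM of the sexes overlapped for all 10 members, while 1.93% of all genes tested had sexes that did not overlap.

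**Figure D2:**
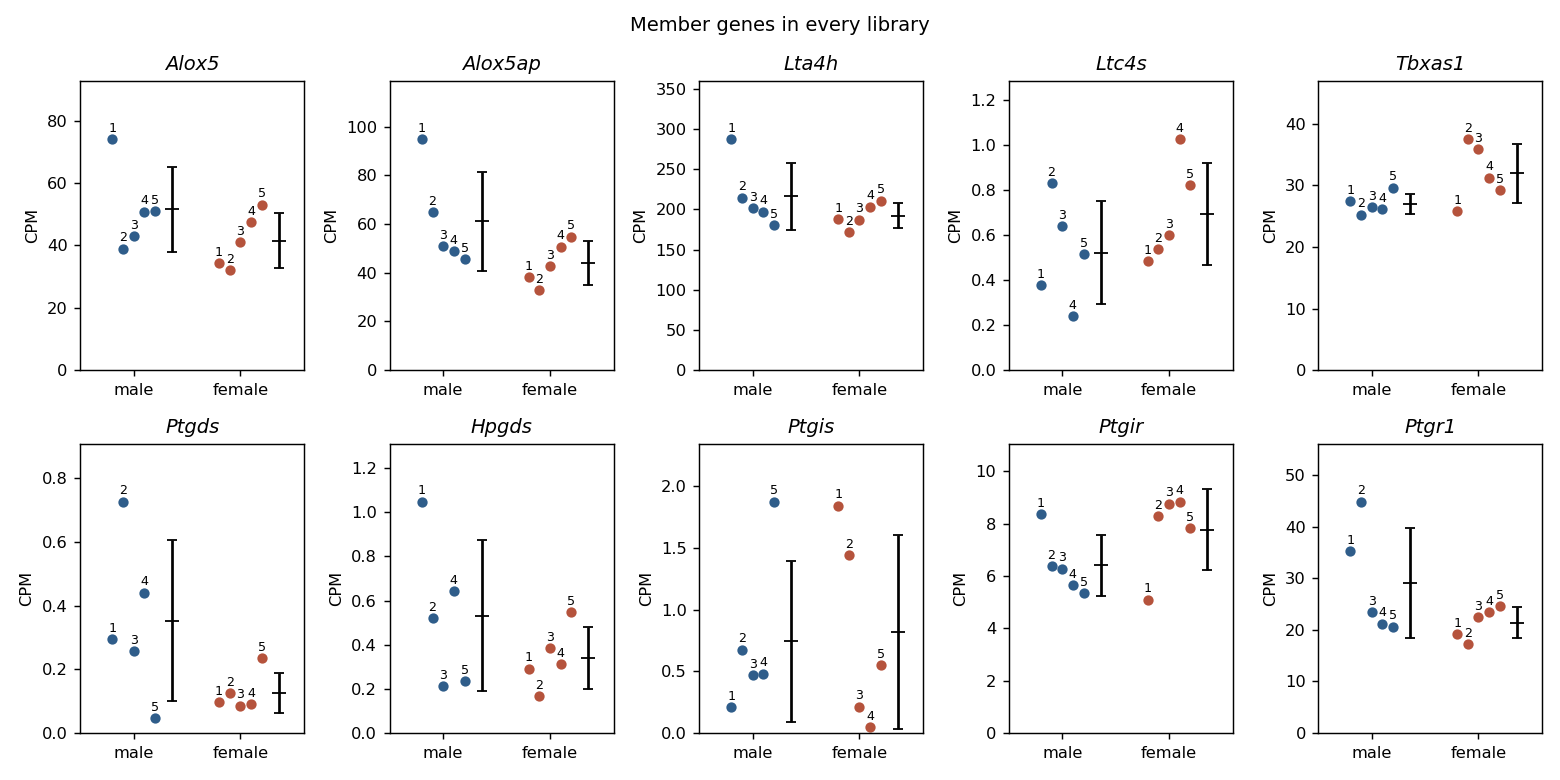
CPM of the 10 genes, 1 panel each with its own axis from 0; points are mice numbered by replicate, and the black bar is the mean with SD over 5 mice. The sexes overlap in each panel, and male replicates 1 and 2 stand high for Alox5ap and Ptgr1.

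Alox5, the gene of 5-lipoxygenase (chromosome 6, 116410077 to 116461178), was at 74.1, 38.9, 42.9, 50.8 and 51.0 CPM in male replicates 1 to 5. Females had 34.3, 32.0, 40.9, 47.5 and 53.0 CPM. Male replicate 1 lay above every other library, and the other 4 males fell within the female range. Males averaged 51.5 ± 13.7 CPM and females 41.6 ± 8.83 CPM (SD, n = 5 per sex). The log2 fold change of Alox5 was -0.31 (95% interval -0.72 to 0.09, edgeR adjusted p = 0.507) and -0.15 without male replicate 1.

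Alox5ap encodes FLAP, the membrane protein that presents arachidonic acid to 5-lipoxygenase (chromosome 5, 149264767 to 149288153). Its levels were 94.9, 64.9, 51.0, 48.9 and 45.8 CPM in male replicates 1 to 5. Females lay at 38.3, 32.8, 42.8, 50.7 and 54.8 CPM. Male replicates 1 and 2 were above all females, and female replicates 1 to 3 were below all males. The log2 fold change was -0.48 (SE 0.21, 95% interval -0.93 to -0.03), with an unadjusted p of 0.0399 and an edgeR adjusted p of 0.506. Leaving out male replicate 1 gave -0.27, and leaving out male replicates 1 and 2 gave -0.15. The antisense gene Gm19719 shares 189 exonic bases with Alox5ap and had 16 counts against 12026. Without the strand setting, reads from shared bases of such a pair cannot be told apart.

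Lta4h, the hydrolase that makes leukotriene B4 (chromosome 10, 93453411 to 93484875), had 288, 215, 202, 197 and 180 CPM in male replicates 1 to 5. The females were at 188, 172, 187, 204 and 211 CPM. Here too male replicate 1 stood above the rest. Male replicate 2 was just above all females, and the other 3 males lay within the female range. Its log2 fold change was -0.17 (95% interval -0.44 to 0.10, edgeR adjusted p = 0.530). Leaving out male replicate 1 gave -0.05, and without male replicate 2 as well it was -0.01.

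Ptgr1 encodes a reductase that inactivates leukotriene B4 and prostaglandin metabolites (chromosome 4, 58965439 to 58987119). Male replicates 1 to 5 had 35.3, 44.9, 23.4, 21.2 and 20.6 CPM. Females had 19.2, 17.3, 22.4, 23.4 and 24.6 CPM. Male replicates 1 and 2 were above all females, and the other 3 males were not. Its log2 fold change was -0.44 (95% interval -0.91 to 0.02, edgeR adjusted p = 0.506). Leaving out male replicate 2 gave -0.23, and without male replicate 1 as well it was -0.03.

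These 4 genes were lowest in female replicate 2, and Alox5, Alox5ap and Lta4h were highest in male replicate 1, where the neutrophil markers were also highest. The monocyte markers (8 of 8 above 1 CPM; 308 to 534 CPM summed in females, 350 to 638 CPM in males) were highest in male replicate 1 and lowest in female replicate 2 as well. Male replicate 2 had the lowest monocyte sum of the males (350 CPM). Alox5 was low there too (38.9 CPM), but Alox5ap and Lta4h were second highest and Ptgr1 was highest. Within the monocyte list Csf1r and F13a1 were lowest in male replicate 2, Ly86 was highest there, and Irf8 was highest in female replicate 5. The neutrophil markers did not order the other libraries as these genes did either. Male replicate 5 had the lowest neutrophil sum of all, 236 CPM, and more Alox5ap (45.8 CPM) than female replicate 3 (42.8 CPM), where that sum was 1085 CPM. The part of these cells in the levels of Alox5, Alox5ap, Lta4h and Ptgr1 was not tested.

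**Figure D3:**
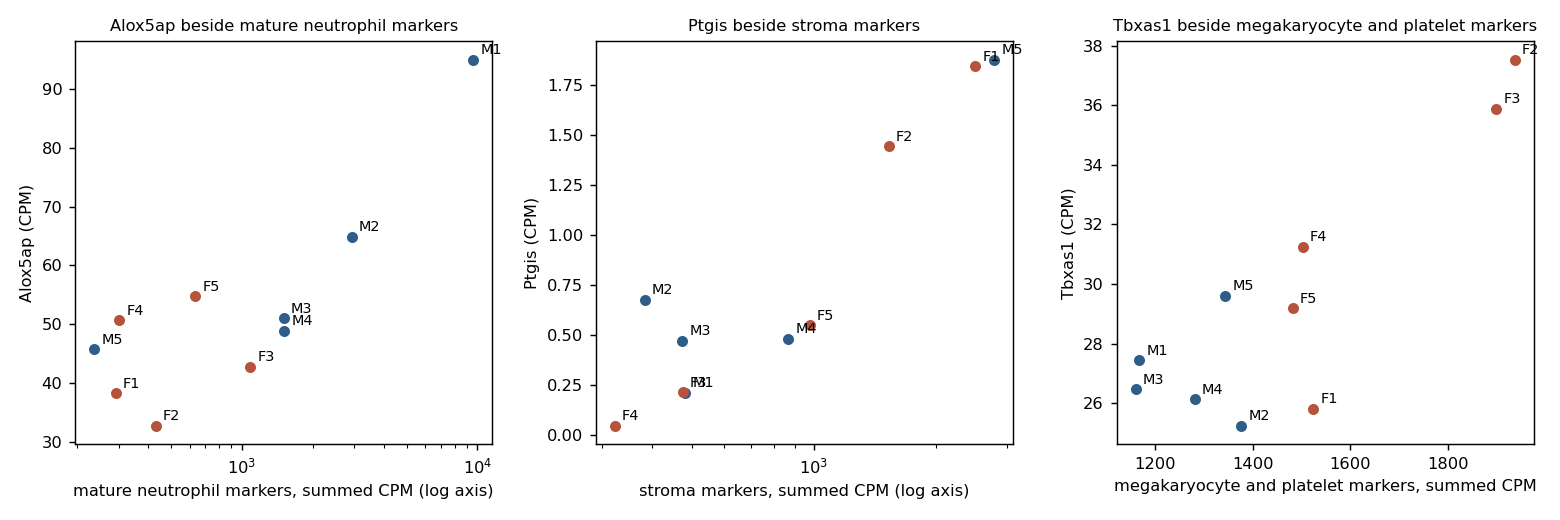
CPM of Alox5ap, Ptgis and Tbxas1 against the summed CPM of mature neutrophil, stroma (both on log axes) and megakaryocyte markers; each point is 1 mouse, M for male (blue) and F for female (red) with the replicate number. Male replicate 1 is highest on both axes for Alox5ap, male replicate 5 and female replicates 1 and 2 are highest on both for Ptgis, and female replicates 2 and 3 are highest on both for Tbxas1.

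Across the 10 libraries, the genes most like each member in log2 CPM were sought among 9465 genes with at least 5 CPM on average. They are given as a description, with no test, since the highest of many were taken and single extreme libraries weigh on each value. For Alox5, Alox5ap, Lta4h and Ptgr1, male replicate 1 was among the libraries farthest from the median. Alox5ap was closest to Coro1a, an actin-binding protein of white blood cells (Pearson r = 0.992, Spearman rho = 0.988), then to Anxa2 and Cldn15. Without the pair of libraries farthest from its median, male replicate 1 and female replicate 2, the value with Coro1a was r = 0.979. Alox5 was closest to the transcription factor gene Ets1 (r = 0.989, rho = 0.952, and 0.970 without the same pair), then to Fam107b and Myo1g. Lta4h was closest to Igsf6 (r = 0.979, rho = 0.939, and 0.895 without the pair) and to Ncf4 and Ncf1, both subunits of the phagocyte NADPH oxidase. Ptgr1 was closest to the inflammasome adaptor gene Pycard (r = 0.978, rho = 0.903), Srgn and Calm2, and the value with Pycard was 0.825 without male replicates 1 and 2.

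FLAP and 5-lipoxygenase transcripts kept a narrow ratio among the females. The log2 ratio of Alox5ap to Alox5, both per kilobase, was 1.61 ± 0.0486 in females (SD, n = 5, range 1.57 to 1.69) and 1.76 ± 0.354 in males (n = 5, range 1.38 to 2.27). Both genes thus varied together from female to female, from 32.0 to 53.0 CPM for Alox5, while their ratio stayed within that range. In males the ratio was highest in male replicate 2 and lowest in male replicate 5. Alox5ap has 1420 exonic bases and Alox5 has 4106. The rank correlation with exon length described above was -0.51 in male replicate 2. In male replicates 4 and 5 it was 0.37 and 0.29, and in females 0.04 to 0.33. The part of exon length in this ratio was not tested. The difference of the means was -0.15, smaller than the spread between mice. The difference in spread was not tested.

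Ltc4s, the synthase of the cysteinyl leukotrienes (chromosome 11, 50236461 to 50238616), was at low levels. The females had 81 counts in all and the males 57. Per mouse this was 0.378, 0.831, 0.640, 0.241 and 0.516 CPM in male replicates 1 to 5 and 0.485, 0.537, 0.598, 1.03 and 0.821 CPM in the females. The highest library was female replicate 4 and the lowest male replicate 4, and the sexes overlapped. For Ltc4s the log2 fold change was 0.43 (95% interval -0.35 to 1.20, edgeR adjusted p = 0.570). It was 0.24 without male replicate 4, 0.25 without female replicate 4 and 0.65 without male replicate 2. The antisense gene Gm26542 shares 268 exonic bases with Ltc4s and had 63 counts against 138, so without the strand setting the level of Ltc4s is uncertain.

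At the branch point of the pathway, Ltc4s stood far below Lta4h. The log2 ratio of Ltc4s to Lta4h per kilobase averaged -5.58 ± 0.367 over the females and -6.21 ± 0.769 over the males (SD, n = 5 per sex), a difference of 0.63 that the spread between mice nearly equalled (0.60). The mast cell and basophil markers (7 of 10 above 1 CPM, led by Prss34 and Mcpt8; 786 to 1544 CPM summed in females, 1338 to 2065 CPM in males) and the eosinophil markers (9 of 9; 505 to 1389 and 322 to 2242 CPM) were both high in male replicate 1, where Ltc4s was the second lowest. In some other libraries the mast cell and basophil sum and Ltc4s stood high together. Male replicate 2 had the highest such sum (2065 CPM) and the second highest Ltc4s. Female replicates 4 and 5 were the highest females for both (1518 and 1544 CPM of the markers). Male replicate 5 had more of these markers (1619 CPM), with Ltc4s at 0.516 CPM. The eosinophil sum was highest among females in female replicate 4 (1389 CPM) and lowest in female replicate 5 (505 CPM). The part of these cells in the level of Ltc4s was not tested. The genes most like Ltc4s were Dhodh (r = 0.913, rho = 0.891), Dnph1 and Ydjc.

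Tbxas1, thromboxane A2 synthase (chromosome 6, 38875404 to 39084585), was at 27.4, 25.2, 26.5, 26.1 and 29.6 CPM in male replicates 1 to 5. Females had 25.8, 37.5, 35.9, 31.3 and 29.2 CPM. Female replicates 2, 3 and 4 lay above all males, and female replicates 1 and 5 lay within the male range. Females averaged 31.9 ± 4.81 CPM and males 27.0 ± 1.67 CPM (SD, n = 5 per sex). On the log2 scale the difference was 0.24 (SE 0.11, 95% interval 0.00 to 0.48), with an unadjusted p of 0.0484 and an edgeR adjusted p of 0.506. Male replicates 1 and 2 did not stand apart for Tbxas1, though male replicate 2 was its lowest library. Leaving out 1 library gave 0.18 to 0.31. The unadjusted edgeR p was 0.139 without female replicate 2, 0.124 without female replicate 3 and 0.0128 without female replicate 1. The antisense gene Gm42962 shares 144 exonic bases with it and had 16 counts against 6770.

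Ptgir, the prostacyclin receptor by which platelets are restrained (chromosome 7, 16906490 to 16910905), had 8.35, 6.39, 6.27, 5.65 and 5.35 CPM in male replicates 1 to 5. In females it was at 5.09, 8.30, 8.76, 8.84 and 7.82 CPM. Female replicates 3 and 4 lay above all males, and female replicate 1 lay below all other libraries. Male replicate 1 lay above female replicates 2 and 5. On the same scale the difference was 0.28 (95% interval -0.11 to 0.67, edgeR adjusted p = 0.513). It was 0.43 without male replicates 1 and 2, the highest of all alternatives. Leaving out 1 library gave 0.22 to 0.40.

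Megakaryocyte and platelet markers (9 of 10 above 1 CPM, led by Itga2b and Ppbp) summed to 1482 to 1937 CPM in females and 1160 to 1376 CPM in males, without overlap. The genes of this list did not all run alike. Itga2b averaged 420 CPM in females against 301 CPM in males, and Vwf 318 against 188 CPM, both lowest in male replicate 2. Pf4 (240 and 234 CPM) and Gp9 (42.2 and 36.3 CPM) were highest in male replicate 2. Female replicates 2 and 3, the highest for Tbxas1, were the highest for this sum at 1937 and 1900 CPM. Female replicate 1, the lowest female for both Tbxas1 and Ptgir, had 1524 CPM of the markers, more than female replicates 4 and 5. The part of megakaryocytes in the levels of Tbxas1 and Ptgir was not tested. The genes most like Tbxas1 were Rab27b, which serves granule release in platelets (r = 0.870, rho = 0.721), Prkcq and the integrin gene Itga2b (r = 0.850, rho = 0.782). Without female replicates 2 and 3 the values with Rab27b and Itga2b were 0.530 and 0.694, so this likeness rests in large part on those mice. Ptgir was closest to Prr5l (r = 0.916, rho = 0.818), Fhl1 and Esam, the last a junction protein of platelets and endothelium.

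Ptgis, prostacyclin synthase (chromosome 2, 167191805 to 167240604), varied most of the set. It had 0.210, 0.675, 0.470, 0.481 and 1.88 CPM in male replicates 1 to 5, from 5 to 40 counts per library. Females had 1.84, 1.45, 0.214, 0.0446 and 0.548 CPM, from 1 to 38 counts. Male replicate 5 and female replicates 1 and 2 stood above the other 7 libraries, so that high and low mice occurred in both sexes. The highest library had 42.0 times the level of the lowest. The log2 fold change was 0.14 (SE 0.75, 95% interval -1.48 to 1.77, edgeR adjusted p = 0.929), and its sign depended on single mice: it was -0.37 without female replicate 1 and 0.83 without male replicate 5. Ptgis shares 156 exonic bases with 1110018N20Rik on the opposite strand.

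The same 3 libraries had the most collagen and osteoblast transcripts. The 8 stroma markers (7 above 1 CPM), a sum carried by the collagen genes Col1a1 and Col1a2 (1612 and 1098 CPM in male replicate 5), came to 2789 CPM in male replicate 5, 2508 CPM in female replicate 1 and 1534 CPM in female replicate 2. The other 7 libraries had 323 to 978 CPM, and female replicate 4, lowest for Ptgis, was lowest for this sum, for both collagen genes and for the osteoblast gene Bglap. Other genes of the same list, known from the stromal cells that hold stem cells in the marrow, ran the other way. Female replicate 4 was the highest library for Cxcl12 (134 CPM), Adipoq (8.57 CPM) and Lepr, and male replicate 5 was the lowest for Cxcl12 (23.0 CPM) and Adipoq (0.328 CPM). The part of any stromal cell in the level of Ptgis was not tested. Among the 9465 genes compared, those most like Ptgis were Bglap, which encodes osteocalcin (r = 0.957, rho = 0.964), its neighbour Bglap2, and Sparc, a bone matrix protein (r = 0.951, rho = 0.939). With the libraries farthest from the median of Ptgis left out (female replicate 4 and male replicate 5), the value with Bglap was 0.940. Reads of the near-identical genes Bglap and Bglap2 cannot be assigned with certainty. Endothelial markers (7 of 8 above 1 CPM, led by Pecam1, which platelets and white blood cells also carry) summed to 112 to 139 CPM in females and 114 to 136 CPM in males, and female replicate 1 had the least. Within this list Cdh5 ran from 0.598 to 2.19 CPM and Kdr from 2.54 to 9.10 CPM over the libraries, and the part of endothelium in the level of Ptgis was not tested. The log2 ratio of Tbxas1 to Ptgis per kilobase averaged 4.39 ± 2.25 over the females and 3.74 ± 1.10 over the males (SD, n = 5 per sex).

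Both prostaglandin D synthases had few counts. Ptgds, the lipocalin-type enzyme (chromosome 2, 25466709 to 25470046), had 39 counts in males and 15 in females altogether, with 1 to 14 counts per male and 2 to 6 per female. That is 0.346 CPM in males (exact Poisson 95% interval 0.246 to 0.473) and 0.129 CPM in females (0.0722 to 0.213), intervals that cover counting error only. Male replicates 1 to 4, up to 0.727 CPM in replicate 2, lay above the highest female (0.235 CPM), and male replicate 5, with 1 count (0.0469 CPM), lay below all females. Without the filter on low counts its log2 fold change was -1.40 (unadjusted p = 0.0339, edgeR adjusted p = 0.522).

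Hpgds, the hematopoietic enzyme known from mast cells and megakaryocytes (chromosome 6, 65117293 to 65144908), had 61 counts in males and 40 in females. The levels were 1.05, 0.519, 0.213, 0.641 and 0.235 CPM in male replicates 1 to 5 and 0.291, 0.165, 0.385, 0.313 and 0.548 CPM in females. Male replicate 1 was highest and female replicate 2 lowest, as for Alox5ap, Alox5 and Lta4h. Without the filter its log2 fold change was -0.62 (edgeR adjusted p = 0.570). The transcripts for the prostaglandin D2 receptors Ptgdr and Ptgdr2 had 2 and 19 counts over all 10 libraries. Of the connective tissue mast cell proteases, Tpsb2 had 15, Mcpt4 9 and Cma1 73 counts (0.457 CPM in females against 0.170 CPM in males for Cma1), while the basophil protease gene Mcpt8 averaged 231 CPM in females against 374 CPM in males.

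**Figure D4:**
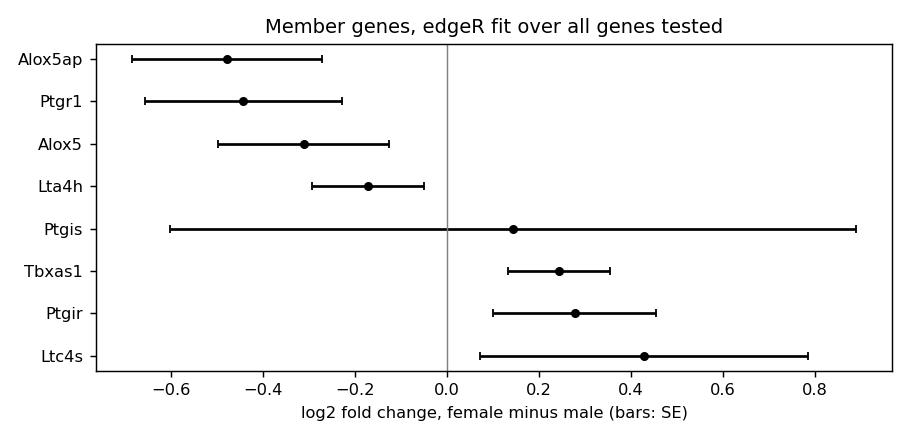
Log2 fold change (female minus male) of the 8 tested genes with its SE from the edgeR fit over all genes. Alox5ap lies lowest at -0.48 and Ltc4s highest at 0.43, and the bar of Ptgis is the widest (SE 0.75).

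The rest of the pathway was read from 44 further genes in 5 lists, of which 40 were matched by symbol and 29 tested. None of the 29 was called (edgeR and DESeq2 both 0), and 6 had an unadjusted p under 0.05, 2 higher and 4 lower in females, beside 9.17% of all genes tested (3.76% and 5.41%). Their median log2 fold change was -0.04.

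Of 8 tested receptor genes 5 had a positive and 3 a negative fold change. Fpr2, a formyl peptide receptor that also binds lipoxin, averaged 1.15 ± 0.682 CPM in females against 8.55 ± 10.2 CPM in males (log2 fold change -2.88, edgeR adjusted p = 0.506). Male replicate 1 alone had 26.2 CPM of it, and male replicate 5 had 0.516 CPM, below all females. Leaving out male replicate 1 moved the fold change of Fpr2 to -1.83, and leaving out male replicate 2 as well gave -1.32, settings chosen for the pathway genes after seeing the data. The cysteinyl leukotriene receptor gene Cysltr1 averaged 0.454 ± 0.114 CPM in females against 0.972 ± 0.412 CPM in males (-1.10, edgeR adjusted p = 0.506). These levels rest on 8 to 40 counts per library. Ltb4r1, the high-affinity leukotriene B4 receptor, had 14.3 ± 1.95 CPM in females and 25.8 ± 16.9 CPM in males (-0.85), with 55.1 CPM in male replicate 1. Without that mouse it was -0.37. For Cysltr1 the value without that mouse was -0.81. The low-affinity receptor gene Ltb4r2 was on the other side, with 1.63 ± 0.474 CPM in females against 0.900 ± 0.513 CPM in males (0.86, and 0.43 without male replicates 1 and 2). The thromboxane receptor gene Tbxa2r was at 12.5 ± 3.27 and 11.4 ± 3.83 CPM (SD, n = 5 each).

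Among the other lipoxygenases, the platelet enzyme gene Alox12 averaged 92.2 ± 27.8 CPM in females against 56.6 ± 20.9 CPM in males (log2 fold change 0.70, edgeR adjusted p = 0.506). Alox15 (-0.62), Alox8 (-0.62) and Alox12e (-0.38) had negative values. Of 7 leukotriene handling genes 6 had a negative value, with a median of -0.32. The lowest p belonged to Cyp4f18, which degrades leukotriene B4 (12.6 ± 3.71 CPM in females, 20.1 ± 9.31 CPM in males, -0.67), then to Cotl1, which binds 5-lipoxygenase (-0.39), and Mgst2, which can also make leukotriene C4 (-0.77). Male replicate 1 was the highest library for Alox15, Cyp4f18, Cotl1 and Mgst2. Leaving it out gave -0.15 for Alox15, -0.34 for Cyp4f18, -0.13 for Cotl1 and -0.27 for Mgst2, and without male replicate 2 as well Mgst2 was at 0.20.

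The 5 tested phospholipase genes had log2 fold changes between -0.04 and 0.11. With Ptgs1, 5 of the 6 tested genes of this list had a positive value, and the median was 0.09. Pla2g4a, the cytosolic phospholipase A2 that releases arachidonic acid, averaged 29.7 ± 2.45 CPM in females against 29.1 ± 3.47 CPM in males (log2 fold change 0.03, SE 0.10). Ptgs1, cyclooxygenase-1, was at 23.6 ± 3.14 and 19.6 ± 3.41 CPM (0.27, edgeR adjusted p = 0.506), and next by p came Pla2g4c (0.11) and Pla2g15 (0.09). The inducible cyclooxygenase gene Ptgs2 had 28 counts over all 10 libraries. Of the prostanoid reductases, Akr1b3 (-0.11), Cbr1 (-0.13) and Ptgr2 (0.06) lay near 0.

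**Figure D5:**
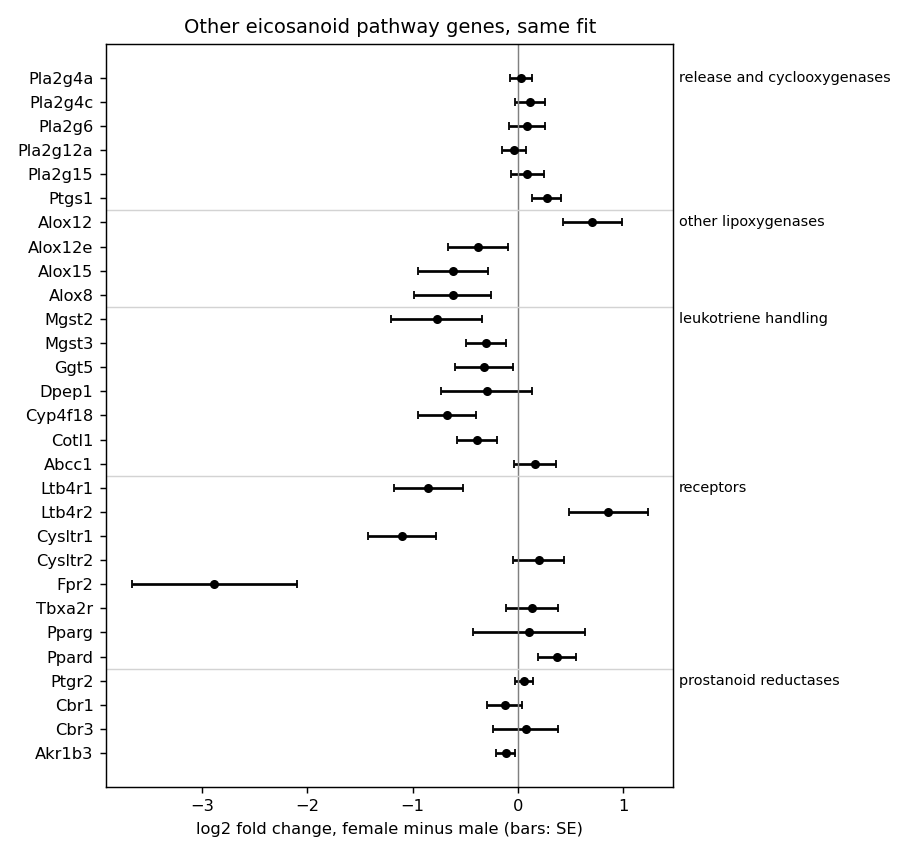
Log2 fold change (female minus male) with SE of the 29 tested pathway genes, grouped by list. Fpr2 lies lowest at -2.88, Ltb4r2 highest at 0.86, and the phospholipases lie near 0.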

How the data were processed

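RNA from lineage-depleted marrow of 5 male and 5 female mice was measured by RNA-seq. The authors deposited raw counts per Ensembl gene, and a table of normalized values (signal) that equalled those counts divided by 1 size factor per library, from 0.852 to 1.13, and was otherwise not used. GRCm38.p6 and mm10 are the builds, and STAR, featureCounts and DESeq the tools, that the submitters' processing notes list. Versions, strand setting and annotation release are not given there. Gene positions and exon lengths come from GENCODE vM21 (GRCm38), which held 25116 of the 25178 genes, and upstream sequences from RefSeq.

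Genes were filtered with edgeR 4.0.16 (filterByExpr by sex, 14674 kept), scaled by TMM and fitted with sex as the only term (robust quasi-likelihood test, R 4.3.3). P-values were adjusted over all genes tested by the Benjamini-Hochberg method, with a threshold of 0.05, and the SE is the fold change divided by the square root of F. CPM are counts per 1000000 of the TMM-scaled library total. Log2 CPM for likeness used a prior count of 2. The procedure was tested on simulated data. In no pair of libraries of a sex did counts agree within sampling noise (the lowest chi-square was 8.98 per degree of freedom). All 10 members are named. Of each pathway list the 3 genes of smallest p are named, and for each tested member the 3 genes of highest r without predicted genes. Other pathway, marker and receptor genes were named after their values were seen. Members and lists were chosen with earlier results of these data known. Alternatives were DESeq2 1.42.0, other scalings and filters, a replicate block and libraries left out.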

Additional observations from a re-analysis of the deposited data

Results flagged for a closer look

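Within each sex, the 10 genes gave 20 groups of 5 mice, and in 3 of them a single mouse lay far from the others by Dixon's criterion. For normally distributed values chance alone meets it in about 1 of 20 groups. The groups here share mice, and Ptgis and Ptgds had few counts, so the number flagged cannot be set against that rate. Ptgis was at 1.88 CPM in male replicate 5, with the other males at 0.210 to 0.675 CPM. This mouse also had the highest sum of stroma markers, 2789 CPM, carried by collagen genes, but the lowest Cxcl12 and Adipoq of that list. Their part in the Ptgis level was not tested. Ptgir was at 5.09 CPM in female replicate 1, with the other females at 7.82 to 8.84 CPM. Ptgds was at 0.235 CPM in female replicate 5, which rests on 6 counts, with the other females at 0.0855 to 0.124 CPM.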

How the results depend on the processing

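No tested member was called under any of the 134 combinations of gene and alternative that gave a value, and the direction was kept in 129. The exceptions were all Ptgis, whose log2 fold change of 0.14 was -0.10 without male replicate 1, -0.37 without female replicate 1, -0.17 without female replicate 2, and -0.19 with male replicates 1 and 2 left out together; leaving out 1 library moved it from -0.37 to 0.83. With the replicate block it was -0.14. The cause was not tested. Ltc4s and Ptgis gave no value under the filter of 1 CPM in 5 libraries. Of all genes tested, 3 were called with more and 5 with fewer transcripts in females. DESeq2 called 36 and 17, with the replicate block 1 was called higher, and with male replicates 1 and 2 left out 7 were. Leaving out 1 library gave 2 to 5 higher, the most without male replicate 2, and 4 to 5 lower. The number at an unadjusted p under 0.05, 1346, was 2227 and 2284 without male replicates 4 and 5, 790 and 854 without female replicates 2 and 3, 841 without male replicates 1 and 2, and 776 with the block. Same-numbered libraries of the sexes did not deviate together (correlations -0.30 to -0.01), so the numbers give no pairing. The ratios between members stayed within 1 SD of their value with each library left out and with male replicates 1 and 2 left out, the latter chosen after seeing the data, but the difference for Tbxas1 to Ptgis (0.65) was -0.15 without female replicate 4. The difference for Alox5ap to Alox5 (-0.15) was -0.02 without male replicate 2 and 0.07 with male replicates 1 and 2 left out. Low counts limit Ltc4s, Ptgis, Ptgds and Hpgds, and among the pathway genes also Cysltr1 (162 counts over all libraries).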

Other observations

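Alox12 and Cysltr1, neighbours of the 10 genes in the pathway, are given per library. The platelet lipoxygenase gene Alox12 was at 78.1, 77.2, 49.4, 48.9 and 29.3 CPM in male replicates 1 to 5 and at 49.7, 79.8, 105, 120 and 106 CPM in the females. Female replicates 2 to 5 lay above all males. Female replicate 1, which was also the lowest female for Tbxas1 and Ptgir, lay within the male range. Cysltr1 was at 1.68, 0.883, 0.640, 0.722 and 0.939 CPM in males and 0.631, 0.454, 0.427, 0.446 and 0.313 CPM in females. Its sexes did not overlap, as was so for 1.93% of all genes tested. The lowest male (15 counts) and the highest female (13 counts) were at 0.640 and 0.631 CPM. Without male replicate 1 the male mean of Cysltr1 was 0.796 CPM.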
